A study of Mus musculus with 113 samples.

Results

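The p53 response genes are 10 genes chosen by symbol: *Trp53*, which encodes p53, and 9 genes known as its transcriptional targets, *Mdm2*, *Cdkn1a*, *Ccng1*, *Gadd45a*, *Sesn2*, *Bax*, *Bbc3*, *Phlda3* and *Trp53inp1*. They are 10 of the 24006 genes for which each RNA-seq library holds an FPKM value (sequenced fragments scaled by the length of the transcript and by the size of the library), and all 10 were found in all 92 libraries. The study asked what the nuclear receptor NR5A2 does in mouse embryos between genome activation and the first lineage choice. All embryos were labelled wild type, came from C57BL/6N females mated with PWK/PhJ males according to the methods, and had been injected, the controls included.

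Pools of embryos received siRNAs, with 2 libraries per group. For 4KD, siRNAs to *Nr5a2*, *Rarg*, *Nr1h3* and *Nr2c2* were combined at 5 μM each and compared with negative control siRNA (NC) at 20 μM, at the 4-cell (4C) and 8-cell (8C) stages. For 3KD at 8C, 1 of the 4 siRNAs was left out and NC was given at 15 μM. For single KD at 8C, each siRNA was given alone at 5 μM, as was NC. *Nr5a2* KD and NC embryos at the 2-cell (2C) stage were injected at 20 μM. Single embryos received mRNA of a cytosine base editor (BE) at 100 ng/μL, an sgRNA against *Nr5a2* at 100 ng/μL, or both, which introduces a stop codon into *Nr5a2*; 8 BE, 8 sgRNA and 14 BE + sgRNA embryos were sequenced at each of 2C and 8C. Embryos in which *Nr5a2* was targeted arrest around the morula stage according to the study, later than every stage sampled.

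p53 is a transcription factor that is kept at a low level by MDM2, a ubiquitin ligase that marks it for degradation. DNA damage and other stress release p53 from MDM2, and p53 then raises *Mdm2* itself, which closes a feedback loop, together with genes that halt the cell cycle, repair DNA or start apoptosis. Since p53 is controlled mainly as a protein, the mRNA of *Trp53* is a poor measure of its activity, and its target genes are the usual readout. The response matters here because injected nucleases and editors, and embryos that are about to arrest, are settings in which p53 activity is commonly looked for.

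p53 binds a consensus of 20 bases, a pair of 10-base half-sites without a spacer, known as the p53 response element. The consensus was searched on both strands in the mm9 genome, the build of the FPKM files, within 3000 bases on each side of the annotated 5′ end of every protein-coding gene. At most 1 mismatch in 20 bases was found around 1.72% of 22376 gene starts. Of the 10 genes, *Cdkn1a*, *Ccng1* and *Mdm2* held such a match, and they are shown because they are the targets whose levels are followed most closely below. The capitals mark the 20 bases of the match, written 5′ to 3′ on the strand of the gene, with 10 bases of flank on each side.

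Cdkn1a: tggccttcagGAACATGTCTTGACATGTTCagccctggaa
Ccng1 upstream: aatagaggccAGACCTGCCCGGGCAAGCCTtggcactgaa
Ccng1 intron: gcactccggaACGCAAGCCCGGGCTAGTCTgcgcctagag
Mdm2: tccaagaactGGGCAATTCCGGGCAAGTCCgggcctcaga

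The *Cdkn1a* match lies at chr17:29227873-29227892, on the plus strand, upstream of the gene (chr17:29227924-29237667), with its first base at position -51 from the annotated start. The *Ccng1* matches lie at chr11:40568964-40568983, upstream of the gene, and at chr11:40568438-40568457, in an intron, on the minus strand (gene, chr11:40562054-40568813). The *Mdm2* match lies at chr10:117148726-117148745, at position -931 from the annotated start of the gene, which lies on the minus strand (chr10:117125944-117147814). A match describes the letters only, and the other 7 genes had more than 1 mismatch at every position of this window. *Trp53* itself lies at chr11:69393861-69405375. A processed copy of it, *Trp53-ps*, is annotated on another chromosome in RefSeq, so reads of *Trp53* may have been shared with it.

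The number of reads is not part of the FPKM files. A relative depth, read from the spacing of FPKM values under 0.5 and set to 1 for the median library, ranged from 0.382 to 1.52, and was lowest in the 4KD experiment (0.382 to 0.758). Summed FPKM ran from 83392 to 556462. The lowest sum belonged to BE + sgRNA replicate 8 at 8C, with 5472 genes at an FPKM of at least 1 against 7620 or more in every other library. In column names, sgRNA replicate 8 at 2C and BE + sgRNA replicates 13 and 14 at 8C are given as 4-cell embryos, against their labels. The summed FPKM of 7 markers of the 2-cell stage (*Zscan4* genes and others) was 7.45 in that 2C embryo, where the medians of the 2C groups lay between 179 and 446, and 114 and 49.6 in replicates 13 and 14 at 8C, where the medians of the 8C groups lay between 4.25 and 38.3 and those of the 4C groups at 51.4 and 67.4. The lowest marker sum at 2C, 4.90, belonged to a BE + sgRNA embryo without such a column name, and a *Rarg* KD pool at 8C reached 69.99. The sum of 114 in replicate 13 was the highest of any 8C library. Of these 3 embryos, the markers alone thus put only replicate 13 outside the range of the other libraries of its stage. The sgRNA embryo at 2C held 7620 genes at an FPKM of at least 1, the fewest of any 2C library. Differences in edited embryos that move without the embryo of the lowest FPKM sum or those with a 4-cell column name are given both ways. The column names of libraries with BE also give eBE or BE4, which are names of base editors, where the labels say BE only and the methods describe eBE. Each name goes with its own range of library numbers, by which sgRNA embryos were placed too. These sets are called the eBE run and the BE4 run below, and within them the editor named and the run cannot be told apart. Sperm and testis markers summed to at most 44.5 FPKM and markers of cumulus and granulosa cells to at most 75.8 FPKM, both highest in a 2C library. *Nr5a2* was at 2.72 to 17.6 FPKM in the libraries given its siRNA and at 19.4 to 50.2 FPKM in the other pools, and the *Nr5a2* mRNA of edited embryos at 8C (median 47.9 FPKM) was at the level of the BE (47.5) and sgRNA (41.8) embryos.

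The p53 response genes were first followed from 2C to 8C in the 32 control embryos (BE or sgRNA alone). *Bax* and *Phlda3*, which promote apoptosis and restrain AKT signalling respectively, and the CDK inhibitor gene *Cdkn1a* were higher at 8C, whereas *Gadd45a*, a growth arrest and DNA repair gene, *Trp53inp1*, *Mdm2* and the stress-response gene *Sesn2* were lower. The levels of *Gadd45a* ran from 3.43 to 58.9 FPKM at 2C (median 32.8, 16 embryos) and from 0 to 5.25 at 8C, where 10 of 16 embryos were listed at 0. *Phlda3* showed the opposite course, with 12 of 16 embryos listed at 0 at 2C and a median of 13.1 FPKM at 8C. The levels of *Bax* ranged from 2.81 to 57.1 FPKM at 2C (median 11.1) and from 43.2 FPKM upward at 8C (median 95.4). The stages overlapped for *Gadd45a* in 1 embryo each, the one at 2C being that with a 4-cell column name, and for *Bax* in 2 embryos at 2C and 1 at 8C.

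On the log2(FPKM + 1) scale, where differences of low genes are understated, 7 of the 10 genes changed between the stages (limma, adjusted p under 0.05), against 72.5% of all 12991 genes tested, so this share is that of the background. The differences between 8C and 2C were 3.33 ± 0.41 (SE) for *Phlda3*, 2.91 ± 0.32 for *Bax* and 0.98 ± 0.33 for *Cdkn1a*, and -4.49 ± 0.31 for *Gadd45a*, -1.07 ± 0.26 for *Trp53inp1*, -0.97 ± 0.24 for *Mdm2* and -0.76 ± 0.32 for *Sesn2*. Adjusted p ranged from 9.7e-20 for *Gadd45a* to 0.0308 for *Sesn2*. *Trp53* (0.25 ± 0.36), *Ccng1* (0.69 ± 0.46) and *Bbc3* (-0.03 ± 0.26), which encodes the apoptosis activator PUMA, did not pass the test. The median of all genes stood at -0.31 in this comparison, and at -0.48 after median-ratio scaling. Within the BE4 run alone *Cdkn1a* and *Sesn2* were not called (adjusted p = 0.3 and 0.153); *Cdkn1a* was also lost under quantile normalization and *Sesn2* with the run as a term, so each held in 11 of 13 alternatives beside the limits of the methods. *Ccng1* was called higher within the eBE run (1.30, adjusted p = 0.00358) and with the run as a term, and stood at -0.12 within the BE4 run.

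Between NC pools at 4C and 8C none of 9 genes tested differed (0% of 10476 genes called; 776 had an unadjusted p under 0.05). *Bax* was already at 73.2 and 92.2 FPKM in the 4C NC libraries, and *Gadd45a* at 0 and 0.612, both within the range of the 8C control embryos. The 2 replicates at 4C differed among themselves. Replicate 1 held 171 FPKM of *Cdkn1a* in NC and 291 in 4KD embryos, where replicate 2 held 45.003 and 34.9. *Sesn2* stood at 13.5 (NC) and 23.7 (4KD) FPKM in replicate 1 and at 1.24 and 1.08 in replicate 2, and *Ccng1* at 38.6 and 55.8 against 5.73 and 1.07. In these genes both libraries numbered 1 were above both libraries numbered 2, and NC and 4KD overlapped.

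**Figure D1:**
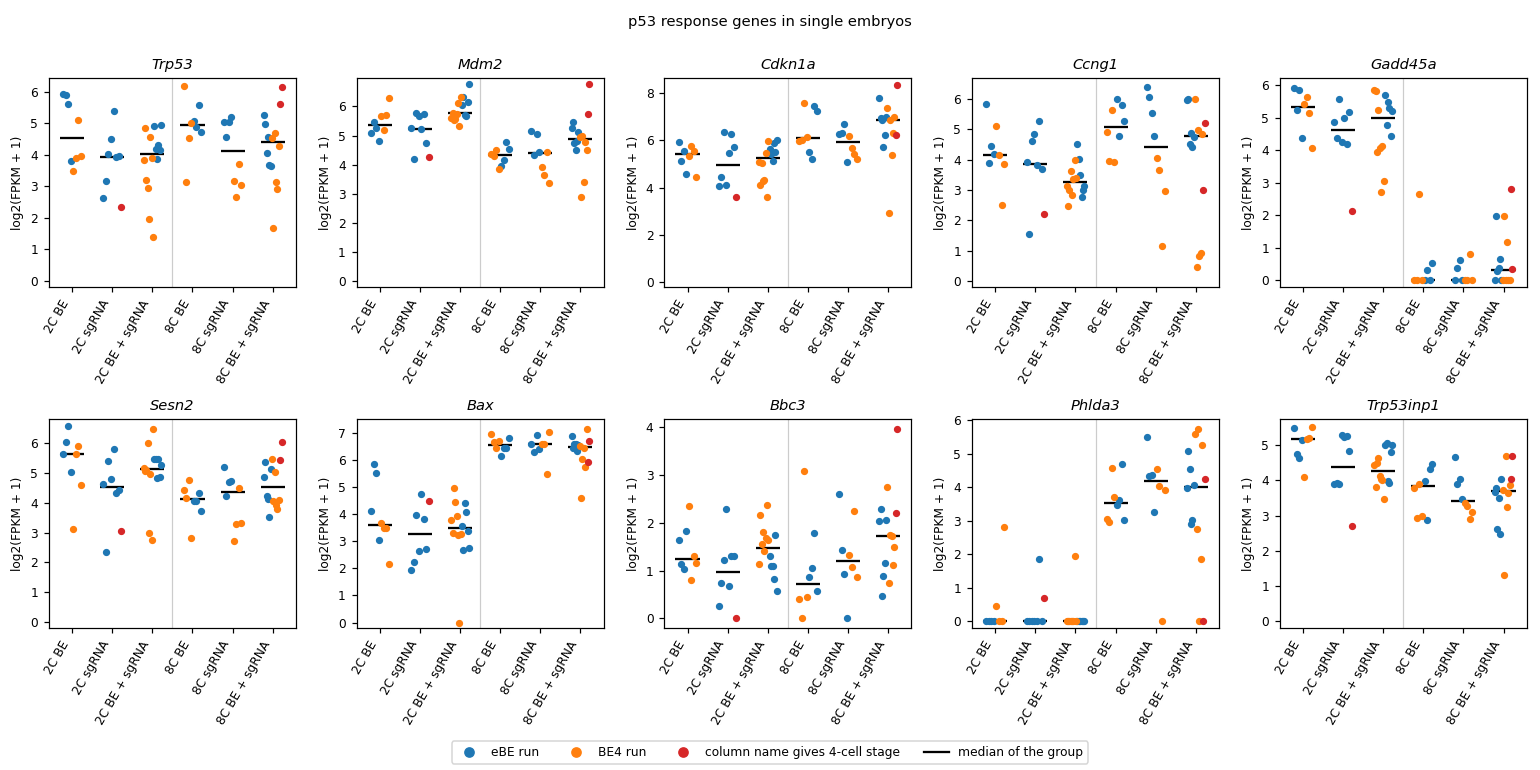
Level of each p53 response gene in single embryos, as log2(FPKM + 1) on the y axis, by stage and injection on the x axis; each point is 1 embryo, coloured by the run of library numbers its column name falls in, which goes with the editor named there (eBE or BE4), and black lines are group medians. Gadd45a is high at 2C and near 0 at 8C, Phlda3 and Bax are high at 8C, and the edited embryos overlap their controls for all 10 genes.

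Whether KD of the nuclear receptors raised the response was asked in 11 comparisons of KD with NC pools. None of the 95 tests of a member passed (adjusted p between 0.104 and 1, limma). 9 of the 95 had an unadjusted p under 0.05, and 8 of these were higher values in the KD. In simulated data, a log2 change of 1 was called in 0% of 200 changed genes in every KD comparison simulated. A change of 2 was called in 52% in 8C *Nr5a2* KD, 32% in 4KD at 4C, 20% in 3KD without *Rarg* siRNA and 0% in 2C *Nr5a2* KD. Changes of these sizes in a member could thus have gone uncalled. The changed genes were drawn from those with a higher mean level, and libraries were simulated as independent. The shares for members at low levels, such as *Bbc3*, were not simulated. Over all genes, 0% were called in 4KD at 4C and at 8C (610 and 784 of 10476 genes had an unadjusted p under 0.05), 0% in 3KD without *Nr5a2* siRNA (251 of 10626), 0.0565% in 3KD without *Rarg* siRNA, 0.00941% in 3KD without *Nr1h3* siRNA and 0% in 3KD without *Nr2c2* siRNA (783). The libraries of the 3KD experiment deviated together by replicate number, and with that number as a block 45, 35 and 65 genes were called in the 3KD without *Rarg*, *Nr1h3* and *Nr2c2* siRNA, still with no member. For single KD the share of 10163 genes called was 2.75% after *Nr5a2* siRNA, 0.00984% after *Rarg* siRNA, 0.00984% after *Nr1h3* siRNA and 0.0787% after *Nr2c2* siRNA. An unadjusted p under 0.05 was held by 1835, 382, 297 and 426 of these genes, in the same order. In *Nr5a2* KD at 2C 0.0167% of 11958 genes were called (558 at an unadjusted p under 0.05).

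*Mdm2*, the feedback target, lay above its NC in most KD pools at 8C. In 8C *Nr5a2* KD embryos it stood at 68.9 and 33.6 FPKM and in their NC at 17.4 and 17.9. The 3KD libraries with *Nr5a2* siRNA held 46.3 and 53.7 (without *Rarg*), 45.8 and 35.4 (without *Nr1h3*) and 42.4 and 44.5 FPKM (without *Nr2c2*), where their shared NC held 19.8 and 20.5. Both 4KD libraries at 8C were above both NC libraries as well (33.3 and 37.5 against 19.9 and 32.0). *Mdm2* was thus above NC without overlap in all 5 groups with *Nr5a2* siRNA at 8C. It also was in 3 of the 4 groups without it, 3KD without *Nr5a2* (30.7 and 23.9), *Nr1h3* KD (23.0 and 21.97) and *Nr2c2* KD (31.0 and 21.1), but not in *Rarg* KD (14.7 and 20.1). Of all genes, 12.9% to 20.2% were above NC in this way in each group with *Nr5a2* siRNA. In the groups without it the shares were 16.2%, 18.0%, 6.38% and 11.6%, in the same order. The 3KD groups share 1 NC and the single KD groups another, so these counts are not independent. The share of genes above NC in all 5 groups was not computed. At 4C the 4KD libraries held 99.8 and 29.3 FPKM and overlapped NC (33.8 and 28.4), and at 2C *Nr5a2* KD embryos (34.3 and 33.2) lay between the 2 NC libraries (37.8 and 24.5).

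The difference of *Mdm2* from NC was 1.40 ± 0.42 (SE, n = 2 against 2; adjusted p = 0.104) in 8C *Nr5a2* KD, with a 95% interval from 0.49 to 2.31. In the 3KD with *Nr5a2* siRNA it was 1.27, 0.97 and 1.07 (each ± 0.39; adjusted p from 0.454 to 0.673). In 3KD without *Nr5a2* siRNA it was 0.41, and 0.47 ± 0.56 in 8C 4KD. The median of all genes stood at -0.22 in 8C *Nr5a2* KD, and scaling that brings this median to 0.01 or 0.02 gave an *Mdm2* difference of 1.70 (median-ratio, adjusted p = 0.0134) or 1.66 (quantile, adjusted p = 0.0119), past the threshold. It was 0.89 without KD replicate 1 and 1.91 without KD replicate 2, and over 12 alternatives adjusted p ran from 0.0119 to 0.365. The test of 3KD with *Nr5a2* siRNA against 3KD without it gave 0.69 ± 0.32 (adjusted p = 0.498; 0.282% of genes called, no member; 262 in place of 30 genes called with the replicate number as a block, no member).

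*Trp53* went the other way in single KD. *Nr5a2* KD libraries held 6.07 and 9.44 FPKM, below both NC (19.9 and 24.6) and all 6 libraries of the other single KD (15.9 to 49.6). Against NC the difference was -1.43 ± 0.50 (adjusted p = 0.157). Against the mean of *Rarg*, *Nr1h3* and *Nr2c2* KD it was -1.83 ± 0.41 (adjusted p = 0.0308), the only member called in that comparison, in which 3.95% of genes were called. *Mdm2* differed by 1.13 ± 0.34 there (adjusted p = 0.092), and was called under both scalings. The *Trp53* call rests on few libraries: it was lost when either *Nr5a2* KD, either *Nr1h3* KD or either *Nr2c2* KD library was left out, and held in 8 of 16 alternatives beside the limits of the methods (adjusted p from 0.015 to 0.179). In the 8C groups that combined *Nr5a2* siRNA with others, *Trp53* ranged from 21.1 FPKM (4KD, 8C) to 95.5 FPKM (3KD without *Nr1h3*), and these were not tested against single KD, a separate experiment.

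**Figure D2:**
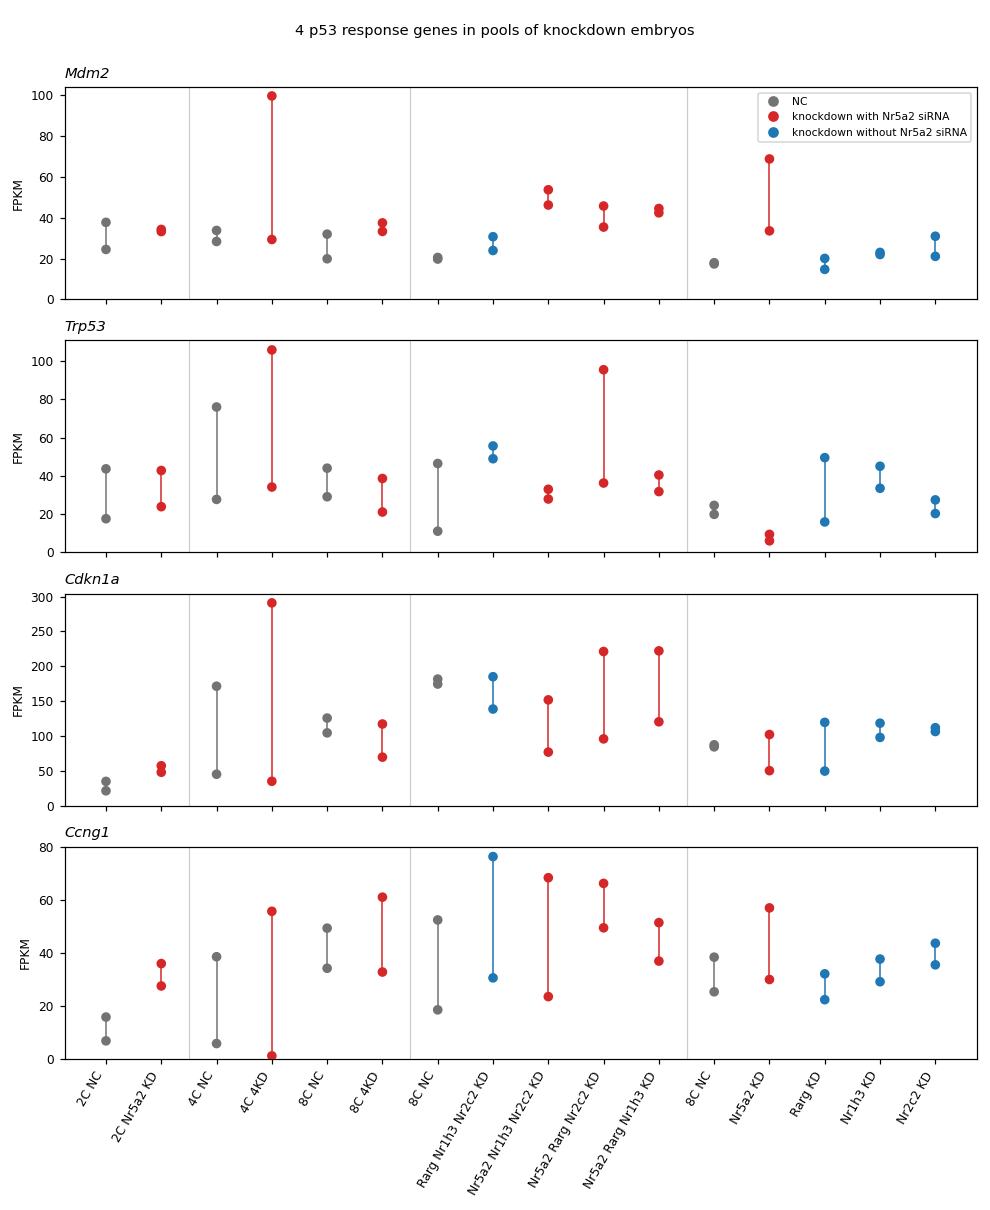
FPKM (y axis) of Mdm2, Trp53, Cdkn1a and Ccng1 in pools of injected embryos, by siRNA on the x axis; each point is 1 library, lines join the 2 libraries of a group, vertical lines separate experiments, grey is NC, red are KD with Nr5a2 siRNA and blue KD without it. Mdm2 is above NC in the red groups at 8C, Trp53 is lowest in Nr5a2 single KD (6.07 and 9.44), and Cdkn1a overlaps NC in Nr5a2 single KD.

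Among the genes that halt the cell cycle, *Cdkn1a*, the CDK inhibitor p21, did not follow *Mdm2*. It stood at 50.1 and 102 FPKM in 8C *Nr5a2* KD and at 87.2 and 84.3 in NC, a difference of -0.26 ± 0.45 with a 95% interval from -1.25 to 0.74. In 8C 4KD embryos (69.5 and 117 FPKM) it overlapped NC (126 and 104) (-0.34 ± 0.91, 95% interval from -2.39 to 1.71). Over the 11 comparisons its difference ran from -0.72 (3KD without *Rarg*) to 0.92 (*Nr5a2* KD at 2C), above 0 in 4, or in 5 under either scaling. *Ccng1*, which encodes cyclin G1, was above 0 in 9 of 11, from -0.59 to 1.51, without a call. *Gadd45a* passed the filter on low values, a mean of 1 FPKM in at least 1 group, only in the 2C pools.

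At 2C most members lay above NC. In both *Nr5a2* KD libraries 6 of 9 members tested were above both NC libraries, where 27.3% of all genes were. They were *Gadd45a* (69.0 and 96.8 against 17.9 and 33.5 FPKM), *Ccng1* (36.0 and 27.5 against 15.8 and 6.75), *Cdkn1a* (57.2 and 47.8 against 34.7 and 21.2), *Sesn2* (71.01 and 48.6 against 18.1 and 40.5), *Bbc3* and *Trp53inp1*. *Trp53inp1* was higher by little (27.8 to 29.2 against 24.2 to 26.8). The differences were 1.70 ± 0.45 for *Gadd45a* and 1.51 ± 0.50 for *Ccng1* (unadjusted p = 0.00675 and 0.0187, adjusted p = 0.89 for both). The median of all genes was 0.23 higher in these KD libraries. Both KD libraries were also above both NC libraries in relative depth (1.053 and 0.848 against 0.563 and 0.746) and in FPKM sum (318230 and 326319 against 303407 and 265390). NC replicate 1 carries a column name from another run of library numbers than the other 3 libraries, and its relative depth was the lowest of the 4. The part of depth and of this library in the result was not tested. *Mdm2* (0.15 ± 0.40, and -0.10 under either scaling) and *Trp53* (0.20 ± 0.55) were not among the 6.

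The same count was made for the other KD. No member of 9 was above NC in both libraries in 4KD at 4C (14.7% of all genes), 1 of 9 at 8C (18.1%), 2 of 8 in 3KD without *Nr5a2* siRNA (16.2%), 2 of 8 without *Rarg* (18.9%), 1 of 8 without *Nr1h3* (18.7%) and 2 of 8 without *Nr2c2* (20.2%). In single KD the counts were 2 of 9 for *Nr5a2* (12.9%), 0 of 9 for *Rarg* (11.6%), 5 of 9 for *Nr1h3* (18.0%) and 4 of 9 for *Nr2c2* (6.38%). The 4 single KD groups share 1 NC, in which *Bbc3* was at 0 and 0.316 FPKM, so their counts are not independent. The *Nr1h3* and *Nr2c2* counts, both above the background, hold *Mdm2*, *Cdkn1a*, *Phlda3* and *Bbc3*; none of these passed the test (adjusted p of 0.93 or more). Both KD libraries were below both NC libraries for 1 member in each of 4 KD: *Cdkn1a* in 3KD without *Rarg* siRNA (76.8 and 152 against 175 and 182 FPKM; 12.5% of all genes were below), *Trp53inp1* in 3KD without *Nr2c2* siRNA (12.3%), *Trp53* in *Nr5a2* KD (33.1%) and *Bax* in *Nr2c2* KD (33.9%). No member was below in the other KD, where the share of all genes was 15.3% and 19.2% in 4KD at 4C and 8C, 7.13% in 3KD without *Nr5a2* siRNA, 12.2% without *Nr1h3*, 19.6% in *Rarg* KD, 18.9% in *Nr1h3* KD and 8.28% at 2C.

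The apoptosis genes gave no called difference in any KD. *Bax*, which permeabilises mitochondria, differed from NC by between -0.63 and 0.13 over 11 comparisons, with an upper 95% bound of at most 1.22. *Bbc3* was low throughout, at most 3.31 FPKM in any pool, and reached 1.45 ± 0.62 in *Nr5a2* KD and 1.51 ± 0.62 in *Nr1h3* KD (unadjusted p = 0.0381 and 0.0321). *Phlda3* differed most in the 3KD with *Nr5a2* siRNA, by 1.66, 1.84 and 1.74 (each ± 0.87; adjusted p from 0.74 to 0.844). *Trp53inp1*, which takes part in autophagy and cell death, ran from -0.79 to 0.63. *Sesn2*, an inhibitor of mTORC1 signalling under stress, was above 0 in all 11 comparisons (0.17 to 1.66), also under both scalings, without a call. A second transcript, *Gm12981*, overlaps *Sesn2* on the same strand in the annotation, and *E230016M11Rik* overlaps *Gadd45a* on the opposite strand, so that reads of these pairs may not be told apart.

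**Figure D3:**
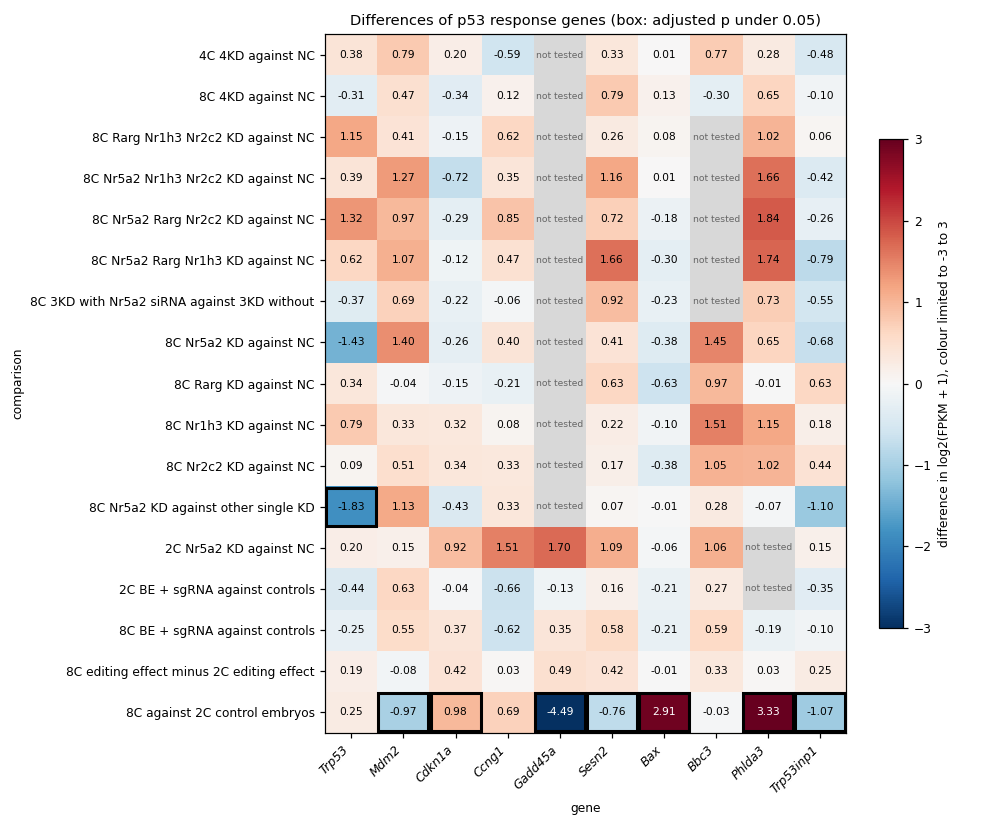
Difference in log2(FPKM + 1) of each p53 response gene (x axis) in each comparison (y axis), with the value printed and coloured from blue (lower) to red (higher); a black box marks an adjusted p under 0.05 and grey cells were below the filter on low values. Boxes are seen in the comparison of stages and for Trp53 in Nr5a2 KD against the other single KD (-1.83), and in no comparison of KD with NC or of edited with control embryos.

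Whether base editing raised the response was asked in single embryos. The 14 edited embryos were set against the average of both control groups, BE and sgRNA (8 each). According to the study, mutation of the targeted mRNA was nearly complete in some edited embryos of the earlier stage and lower in the others. FPKM values do not give the share of edited reads, so all edited embryos were treated alike. The part of incomplete editing in the differences below was not tested. No member was called at 2C (0.00805% of 12420 genes called) or at 8C (0.164% of 9760). Adjusted p ranged from 0.281 to 0.966 over 19 tests, of which 2 had an unadjusted p under 0.05. Over all genes, 1444 at 2C and 1058 at 8C had an unadjusted p under 0.05. In data simulated as for the KD, with changed genes of a higher mean level, a log2 change of 1 was called in 17% (2C) and 26% (8C). A change of 2 was called in 91% and 95.5%. For *Mdm2*, the 14 edited embryos at 2C held 38.8 to 107 FPKM (median 53.2), all above the median of the 16 controls (17.3 to 77.4, median 37.4) and 3 of them above every control. At 8C they held 6.35 to 108 FPKM (median 28.8) against 9.30 to 34.4 (median 19.5), with 12 of 14 above the control median and 4 above every control. The groups overlapped at both stages. For other members the tallies differed. At 2C 1 of 14 edited embryos was above the control median for *Ccng1* and 3 of 14 for *Trp53inp1*, against 7 for *Cdkn1a*, 9 for *Bbc3* and 10 for *Sesn2*, and at 8C 4 of 14 for *Trp53* and for *Bax*, against 11 for *Cdkn1a* and for *Bbc3*.

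The difference of *Mdm2* was 0.63 ± 0.22 at 2C (unadjusted p = 0.00659, adjusted p = 0.281) and 0.55 ± 0.27 at 8C (adjusted p = 0.471). At 2C it was 0.57 ± 0.21 without the control with a 4-cell column name, 0.92 ± 0.30 within the eBE run of library numbers and 0.03 ± 0.35 within the BE4 run, where BE alone served as control since no sgRNA embryo falls in that run. The medians by run were 67.9 (edited), 35.3 (BE) and 37.0 FPKM (sgRNA) in the eBE run and 49.9 (edited) and 50.6 FPKM (BE) in the BE4 run. The extent of editing was not compared between the runs. At 8C the *Mdm2* difference was 0.44 ± 0.21 (eBE) and 0.20 ± 0.41 (BE4) within the runs. It was 0.32 ± 0.25 without the embryos with a 4-cell column name. Those 2 embryos, at 52.9 and 108 FPKM, were the highest of the 30 at 8C. Without the embryo of the lowest FPKM sum the 8C difference was 0.70 ± 0.24 (adjusted p = 0.126).

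*Cdkn1a* did not shift at 2C (-0.04 ± 0.30, 95% interval from -0.65 to 0.57). At 8C it stood at 6.67 to 323 FPKM in edited embryos (median 115) and at 33.0 to 187 in controls (median 66.6). Its difference was 0.37 ± 0.37, with an upper 95% bound of 1.12. It was 0.65 ± 0.28 without the embryo of the lowest FPKM sum (adjusted p = 0.232), 0.24 ± 0.37 without the embryos with a 4-cell column name, 0.54 ± 0.39 in the eBE run, and -0.05 ± 0.57 for BE4 libraries. Both the highest and the lowest edited embryo were among those set apart above, BE + sgRNA replicate 14 and replicate 8. *Sesn2* reached 0.58 ± 0.28 at 8C (adjusted p = 0.453) and *Bbc3* 0.59 ± 0.32, while *Ccng1* was at -0.66 ± 0.33 at 2C and -0.62 ± 0.56 at 8C. For *Bax* the difference was -0.21 at both stages, with intervals from -1.03 to 0.61 and from -0.64 to 0.22. *Trp53* (-0.44 and -0.25), *Trp53inp1* (-0.35 and -0.10) and *Gadd45a* (-0.13 and 0.35) had intervals that spanned 0 at both stages. At 8C, *Trp53* was at -0.05 without the embryo of the lowest FPKM sum and at -0.53 without those with a 4-cell column name, *Trp53inp1* at 0.07 and -0.24, *Bbc3* at 0.67 and 0.37, *Sesn2* at 0.62 and 0.40 and *Ccng1* at -0.35 and -0.63. *Phlda3* was below the filter at 2C, with 13 of 14 edited embryos listed at 0, and at -0.19 ± 0.53 at 8C.

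The editing effect at 8C minus that at 2C was not called for any of the 10 genes (0.0385% of 12991 genes called), and was -0.08 ± 0.34 for *Mdm2* and 0.42 ± 0.48 for *Cdkn1a*. BE alone and sgRNA alone are both injected controls without the edit, and differ in what was injected. Between them no member was called at 2C or 8C. All 9 members tested at 2C were above 0 in BE relative to sgRNA embryos, with a median of 0.61. At 8C 7 of 10 were, with a median of 0.075. The median of all genes was above 0 too, at 0.27 (2C) and 0.31 (8C), and at 8C the median of the members was below it. The share of all genes above 0 was not computed. No sgRNA embryo at 2C falls in the BE4 run, so injection and run cannot be fully told apart there. In these comparisons 0% of genes were called at 2C and 0% at 8C, with 984 and 775 genes at an unadjusted p under 0.05. *Trp53* was at 0.97 ± 0.50 (2C) and 0.84 ± 0.51 (8C) in BE relative to sgRNA embryos, beside a median of all genes of 0.27 and 0.31.

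The next question was which members varied with *Cdkn1a* from embryo to embryo. For each embryo the mean of its group and run was subtracted, and *Cdkn1a* was compared with the 9 other genes at both stages (18 relations, permutation within group and run, two-sided, Benjamini-Hochberg adjustment). At 8C, *Cdkn1a* varied with *Mdm2* (Pearson's r = 0.81, p = 5e-05, adjusted p = 0.0009; Spearman's rho = 0.76, p = 0.00011, adjusted p = 0.00126; 30 embryos). It also varied with *Trp53inp1* (r = 0.78, rho = 0.70), *Ccng1* (r = 0.69, rho = 0.70) and *Bbc3* (r = 0.57, rho = 0.62), each with an adjusted p of at most 0.00463 for both measures. *Phlda3* passed by rank only (rho = 0.67, adjusted p = 0.0022; r = 0.55, adjusted p = 0.0504). *Bax* passed for r only (r = 0.60, adjusted p = 0.0476, and rho = 0.41, adjusted p = 0.15). Its r was 0.37 without the 2 embryos farthest from the median of *Cdkn1a* and 0.29 without the embryos set apart above. Within the eBE and the BE4 run it was 0.59 and 0.60. *Trp53*, *Sesn2* and *Gadd45a* did not pass (r = 0.52, 0.34 and -0.31). At 2C none of the 9 relations passed, and *Mdm2* gave r = 0.31 (adjusted p = 0.273). Whether the relation differs between stages was not tested. Over all 45 pairs of members at 8C r ran from -0.50 to 0.84 (median 0.44), with 20 pairs above 0.5.

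Many genes varied with *Cdkn1a* at 8C, with a median r of 0.27 over 9759 other genes. A value of r at or above that of the member was held by 0.0102% of these genes for *Mdm2*, which is *Mdm2* alone, by 0.0717% for *Trp53inp1* and by 0.943% for *Ccng1*. It was held by 5.75% for *Bax*, 7.8% for *Bbc3*, 10.1% for *Phlda3* and 14.4% for *Trp53*, so that values as high as theirs were common.

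The relation with *Mdm2* at 8C held within both runs (r = 0.75 in the eBE and 0.82 in the BE4 run) and without the 2 embryos farthest from the median of *Cdkn1a* (r = 0.73), and was 0.69 without the 3 embryos set apart above. The same values were 0.59, 0.88, 0.59 and 0.63 for *Trp53inp1*, 0.48, 0.75, 0.62 and 0.59 for *Ccng1* and 0.45, 0.59, 0.61 and 0.53 for *Bbc3*, and 0.50, 0.51, 0.65 and 0.55 for *Phlda3*. Members also varied with the FPKM sum of the library (r = 0.71 for *Cdkn1a*, 0.62 for *Mdm2*, 0.74 for *Trp53inp1* and 0.61 for *Ccng1*). With the FPKM sum taken out by a straight line, r with *Cdkn1a* was 0.68 for *Mdm2*, 0.63 for *Bbc3*, 0.53 for *Trp53inp1*, 0.49 for *Phlda3* and 0.47 for *Ccng1*, while it was 0.21 for *Bax* and 0.17 for *Trp53*. The median over all genes was then -0.05, and 0.0102% of genes were at or above *Mdm2*, 0.041% at or above *Bbc3*, 0.738% at or above *Ccng1* and 12.3% at or above *Bax*. *Cdkn1a* and *Mdm2* were at 323 and 108 FPKM in 1 edited embryo, BE + sgRNA replicate 14, and at 6.67 and 6.35 in another, replicate 8. In single embryos, less RNA in each cell and a poorer library cannot be told apart.

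**Figure D4:**
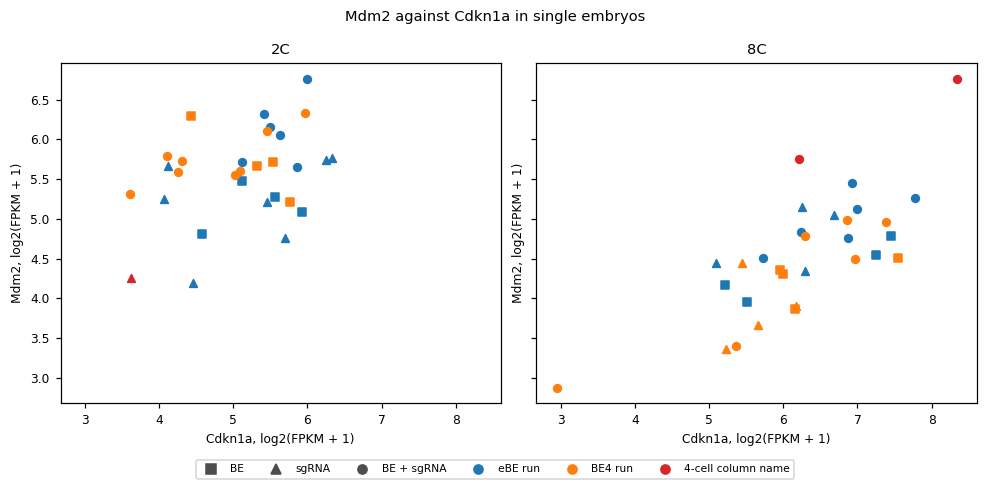
Mdm2 against Cdkn1a in single embryos at 2C (left) and 8C (right), both axes as log2(FPKM + 1); each point is 1 embryo, its shape gives the injection and its colour the run of library numbers, with red for a 4-cell column name. At 8C the 2 genes vary together (r = 0.81 after the means of group and run are subtracted), with 1 edited embryo at the lower end and 1 with a 4-cell column name at the upper end, and at 2C r = 0.31.

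Over the means of the 22 groups, the 5 genes whose course was most like that of *Cdkn1a*, of 9179 genes with at least 5 FPKM in a group, were *Ftsj1* (r = 0.95), *Atp6ap1* (r = 0.95), *Ogfod3*, *Polb* and *Capg* (r = 0.94 each). Of the members, *Bax* came closest (r = 0.89), and *Gadd45a* ran opposite (r = -0.79). These groups share controls and differ mainly by stage, and the values are descriptions.

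Other genes of the pathway were looked at as lists. Of 25 further p53 targets, 22 to 24 were tested, and 1 was called over all KD and editing comparisons: *Steap3*, a metalloreductase of iron uptake, was lower in 8C *Nr5a2* KD (3.37 and 3.77 FPKM against 19.8 and 38.0 in NC; -2.64 ± 0.52, adjusted p = 0.0238). The median of the list was 0.15 in this comparison beside -0.22 over all genes, -0.12 (all genes 0.07) in edited embryos at 2C and 0.03 (all genes 0.01) at 8C. Of 15 regulators of p53 tested, *Chek2*, the DNA damage checkpoint kinase, was lower in *Nr5a2* KD (21.9 and 25.9 FPKM against 81.7 and 84.3; -1.76 ± 0.34, adjusted p = 0.02) and also against the other single KD (-1.48 ± 0.28), in 13 of 16 alternatives.

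The apoptosis machinery gave 4 of 16 genes lower and none higher in 8C *Nr5a2* KD, where 2.75% of all genes were called in either direction; the median of the list was -0.45. *Casp6*, an executioner caspase, stood at 8.53 and 1.60 FPKM against 50.3 and 60.1 in NC (-3.49 ± 0.55, adjusted p = 0.0074). *Bok*, a relative of *Bax*, stood at 1.74 and 5.32 against 53.2 and 33.6 (-3.38 ± 0.56). *Bad*, which promotes cell death by binding BCL2 proteins, stood at 15.1 and 5.04 against 67.3 and 72.3 (-2.84 ± 0.46). Both KD libraries were below both NC libraries for *Casp6*, *Bok* and *Bad*, as they were for 33.1% of all genes. *Casp6*, *Bok* and *Bad* were also called lower against the other single KD (-3.25, -2.64 and -2.52). Against NC all 8 list genes called, *Chek2*, *Steap3*, *Parp1* and *Upp1* included, lost the call when either NC library was left out, with adjusted p up to 0.273. Against the other single KD, *Casp6*, *Bad* and *Parp1* held in all 16 alternatives beside the limits of the methods, and *Bok* in 14. No gene of this list was called in 4KD, 3KD, the other single KD, the 2C KD or the edited embryos.

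In the comparison of stages, *Casp6*, *Bok*, *Bad* and *Chek2* rose from 2C to 8C in control embryos (by 3.37, 2.82, 2.79 and 1.48), as did *Steap3* (2.58). *Mdm4*, the partner of MDM2 that holds p53 in check, fell by 4.68 and *Rrm2b*, a p53 target that supplies nucleotides for repair, by 4.24, while *Perp*, a p53 target at cell junctions, rose by 4.34 and *Rpl5*, a ribosomal protein that binds MDM2, by 3.73. Of the integrated stress response 3 genes rose and 8 fell of 14 tested, among them *Ddit3*, which encodes CHOP (-2.94), beside 72.5% of all genes called. Of base excision repair, the pathway that handles edited bases, 9 rose and 1 fell of 13 tested, against the same background. In edited embryos no gene of either list was called. In 8C *Nr5a2* KD *Parp1*, a sensor of DNA breaks, was lower (9.46 and 9.45 FPKM against 49.5 and 65.2; -2.47 ± 0.37, adjusted p = 0.00645), and *Psat1*, an enzyme of serine synthesis, was called lower against the other single KD (-1.10 ± 0.25, adjusted p = 0.0351), in 5 of 16 alternatives.

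Among stage markers, *Upp1*, listed as an 8-cell marker but lower at 8C than at 2C in control embryos (-2.98), was higher in *Nr5a2* KD (32.7 and 16.01 FPKM against 0.394 and 3.04; 3.34 ± 0.60, adjusted p = 0.0152). *Fbxo15*, another stage marker, was called lower against the other single KD (-1.91, adjusted p = 0.0186), in 6 of 16 alternatives. *Gdf9*, an oocyte gene that falls from 2C to 8C (-4.59), was higher in edited embryos at 8C (7.33 to 92.5 FPKM, median 14.4) than in BE (0.913 to 20.0, median 3.32) and sgRNA embryos (0.473 to 21.3, median 1.59), by 1.84 ± 0.38 (adjusted p = 0.0459). It was the only marker called in edited embryos, and the call held in 2 of 14 alternatives. Its part in the values of the p53 response genes was not tested.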

How the data were processed

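RNA-seq (Smart-seq2, paired-end) was available for 92 of 113 samples; the other 21 (chromatin assays) are not analysed here. Per the methods, the authors trimmed reads, mapped them to mm9 with TopHat, and deposited FPKM from Cufflinks on the UCSC refFlat annotation. FPKM are scaled by transcript length and mapped fragments and hold no counts, so edgeR, the test of the methods, could not be run.

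Differences were estimated per experiment (7 fits) on log2(FPKM + 1), unscaled, using limma (3.58.1, R 4.3.3; trended eBayes, two-sided), after dropping genes whose mean stayed below 1 FPKM in all groups fitted. Adjusted p are Benjamini-Hochberg values over every gene tested; called means below 0.05. Edited embryos were set against the average of both control groups. The code was tested on simulated data with 200 changed genes. Correlations used 100000 permutations (Python 3.11.15). Runs were read from the column names (eBE, BE4) and, for sgRNA embryos, whose names give no editor, from library numbers. In the 3KD experiment same-numbered libraries deviated together in all 10 pairs of groups (r from 0.28 to 0.51), which pairs them by the data alone. In the 4KD experiment they did so in 2 pairs of groups (r from 0.34 to 0.35).

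Depth is known only as a relative value, so no counting interval is given. Replicates are separate pools or embryos by label; p-values measure the spread between them. The 10 genes are always named; of each other list, at most the 5 largest called genes per comparison, of which 1 gene is not reported here. Members and lists were chosen with earlier results of these data known. Alternatives were a pseudocount of 0.1, no filter or a mean FPKM of 5, 2 scalings, no trend, a replicate block, fewer groups in the fit, the methods' limits, other controls, and leaving out libraries or runs.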

Additional observations from a re-analysis of the deposited data

Results flagged for a closer look

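In the 4 groups of 8 control embryos, 5 values of the p53 response genes stood far from the rest of their group by Dixon's test on FPKM, with 40 sets of values tested. Its rate of about 1 in 20 by chance holds for normally distributed values. The flagged genes were at low FPKM in most embryos of the group, where this need not hold. Whether the count of 5 is an excess therefore cannot be told. *Phlda3* was at 5.97 FPKM in BE replicate 8 at 2C, with the next embryo at 0.366, and at 2.62 FPKM in sgRNA replicate 6 at 2C, with the next at 0.613. *Bbc3* was at 3.89 FPKM in sgRNA replicate 4 at 2C, with the next at 1.49. BE replicate 3 at 8C stood out for *Bbc3* (7.48 FPKM, next 2.45) and for *Gadd45a* (5.25 FPKM, next 0.444), and also held the highest *Cdkn1a* of the controls (187 FPKM).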

How the results depend on the processing

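The number of members called kept its side of the threshold under all alternatives in 17 of 20 comparisons. In 8C *Nr5a2* KD against NC it was 0 and became 1 (*Mdm2*) under median-ratio scaling and 1 under quantile normalization. Against the other single KD it was 1 (*Trp53*) and became 2 under each scaling, 0 without the filter on low values, 0 at the methods' limits (adjusted p under 0.01 and a log2 difference of at least 2) and 0 with only the groups of the comparison in the fit, and leaving out 1 library gave 0 to 1; without *Nr5a2* KD replicate 2 the 1 called gene was *Mdm2*. In 8C against 2C control embryos 7 members were called, and 3 at the methods' limits; *Bbc3*, at -0.03, was at 0.62 and called higher under quantile normalization. The causes were not tested. With the replicate number as a replicate block, 0 members were called in 8C *Nr5a2* KD against NC and 1 against the other single KD, and no call of a member changed in any comparison. In the 4KD experiment same-numbered libraries deviated together as well (r of 0.34 to 0.35), within the range of the 3KD experiment. The main 4KD tests and intervals do not use this pairing, and with the block 0 genes were called in 4KD at 4C and at 8C. In the remaining experiments the numbers were taken as names only (r of -0.04 to 0.14 in the single KD experiment). Over all genes, 279 calls in 8C *Nr5a2* KD against NC became 113 without the filter, 70 at the methods' limits, 125 without KD replicate 2, and 29 or 6 without NC replicate 1 or 2. Against the other single KD 401 became 228 without the filter, 638 under quantile normalization, 101 at the methods' limits and 141 to 334 without 1 library. The 30 calls of 3KD with against without *Nr5a2* siRNA became 0 to 2 without 1 library. The 16 in edited embryos at 8C became 0 without embryos of a 4-cell column name and 87 without that of the lowest FPKM sum. The 9421 between stages became 6271 at a mean FPKM of 5 and 2463 at the methods' limits. Without counts, values near 0 have no limit of detection.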
